A study of Mus musculus with 3 samples.

Results

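The subject is a group of 6 mouse genes of one chemokine axis: the ligand genes Ccl2, Ccl7, Ccl8 and Ccl12 and the receptor genes Ccr2 and Ccr8. They are 6 of the 32285 genes in the count tables, found by symbol, and all 6 had counts in every library. They were selected on their measured levels in these libraries, so the differences between libraries given for them are a description, with no test. The assay was droplet single-cell RNA sequencing of lung, which counts UMIs (unique molecular identifiers, each standing for 1 captured RNA molecule). There were 3 libraries, 1 for each treatment label, Control, Model and PD00, all from mice aged 3 months. The series title names ovalbumin (OVA), an egg protein used to sensitise mouse airways, as what induced the response studied, and calls PD00 a peptidomimetic. No label states strain, sex, dose or number of animals, or ovalbumin treatment for the mice behind the PD00 library, and the tissue is labelled healthy in all 3. With 1 library per group there was no replicate and no test, and every 95% interval below covers counting error only.

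CC chemokines are small secreted proteins that draw leukocytes along a gradient through G protein-coupled receptors. CCL2, CCL7 and CCL12 act through CCR2, the receptor by which classical monocytes leave the bone marrow and enter inflamed tissue. Mouse CCL8 is also a ligand of CCR8, a receptor found on type 2 helper T cells and regulatory T cells, and in allergic inflammation it is known for drawing such T cells.

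The 4 ligand genes lie on the + strand of chromosome 11 within 81229 bp, in the order Ccl2, Ccl7, Ccl11, Ccl12 and Ccl8 (GRCm38, GENCODE M21). Ccl2 (ENSMUSG00000035385) spans chr11:82035571-82037453, Ccl7 (ENSMUSG00000035373) chr11:82045712-82047525, Ccl12 (ENSMUSG00000035352) chr11:82101845-82103400 and Ccl8 (ENSMUSG00000009185) chr11:82115185-82116799, each with 3 exons. Ccl12 ends 11784 bp before Ccl8 begins. The - strand gene Gm17268 overlaps Ccl2, and it had 0 UMIs in each library. Ccr2 (ENSMUSG00000049103) spans chr9:124101950-124113557 and Ccr8 (ENSMUSG00000042262) chr9:120092114-120094906, both on the + strand.

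The promoters of the neighbours Ccl8 and Ccl12 are shown because these adjacent genes went opposite ways between Control and Model in the cells that held most of their UMIs. The 250 bases before each gene start are given 5' to 3', from RefSeq on GRCm38.p6, at chr11:82114935-82115184 and chr11:82101595-82101844 on the + strand. Capitals mark the TATA box letters TATAAA.
Ccl8: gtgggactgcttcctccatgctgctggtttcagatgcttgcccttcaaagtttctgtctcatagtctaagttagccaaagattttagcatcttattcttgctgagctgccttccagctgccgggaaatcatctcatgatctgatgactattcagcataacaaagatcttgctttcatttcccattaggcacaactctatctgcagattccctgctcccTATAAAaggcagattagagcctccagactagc
Ccl12: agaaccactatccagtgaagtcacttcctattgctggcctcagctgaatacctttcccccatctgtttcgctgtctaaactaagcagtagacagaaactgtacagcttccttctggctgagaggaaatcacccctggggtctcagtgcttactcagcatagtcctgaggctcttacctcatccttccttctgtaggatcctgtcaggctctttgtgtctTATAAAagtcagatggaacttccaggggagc
The motif begins at position -32 in Ccl8 and -31 in Ccl12, counted from the start. In windows that run on to 50 bases after the start (300 bases), TATAAA was found on either strand in 13.6% of 32851 RefSeq promoters, and not in those of Ccr2 and Ccr8. The windows of Ccl8 and Ccl12 were identical at 193 of 300 bases (64.3%) in a global alignment. The unrelated pairs gave 57.0% for Ccl8 with Ccr2 and 58.7% for Ccl12 with Ccr8, and Ccr2 with Ccr8 gave 54.0%. Neither TGANTCA, the AP-1 motif, nor TTCNNNNGAA, a STAT6 motif, was found on either strand of the 4 windows. They are in 7.81% and 6.95% of all RefSeq promoters.

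After filtering, 9368 Control, 11285 Model and 9373 PD00 cells were kept, with 77245146, 79690635 and 76914274 UMIs. Levels are CPM, UMIs per 1000000 UMIs of the sum. Marker genes that include no member placed 27282 of the 30026 cells in a class, whose name stands for a resemblance by markers. The ungated share was 5.06%, 11.7% and 10.2% in Control, Model and PD00. The gate thresholds were chosen after the data were seen. Libraries shared 27 to 40 cell barcodes pairwise. One cluster stood apart, with 973 Model, 7 PD00 and 3 Control cells, a median of 2298 UMIs and 32.8% ungated cells. Leaving out it and 2 others with at least 30% ungated cells, a choice made after seeing the data, kept all 12 ratios over all cells within their counting intervals.

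Ccl8 was at 8.17 CPM in Control, 757.7 in Model and 352.7 in PD00. Model stood 92.8-fold above Control (85.8 to 100.5), and PD00 2.15-fold below Model (2.12 to 2.18) but far above Control. It was the most abundant of the 4 ligand RNAs in Model and PD00 and the least abundant in Control, by UMIs of 3' tags, which do not scale with transcript length. Ccl2, the main monocyte attractant of this family, ran the other way at 93.6, 39.05 and 18.35 CPM, 2.40-fold lower in Model than in Control (2.30 to 2.50) and 2.13-fold lower in PD00 than in Model (1.998 to 2.27). Ccl7, whose protein draws monocytes through CCR2 and also binds other CC receptors, was at 39.5, 32.05 and 14.4 CPM, 1.23-fold lower in Model (1.17 to 1.30) and 2.23-fold lower again in PD00 (2.08 to 2.39). Ccl12, a mouse monocyte chemokine close to CCL2, was at 15.55, 23.55 and 8.92 CPM. That was 1.515-fold higher in Model (1.41 to 1.63) and 2.64-fold lower in PD00 than in Model (2.42 to 2.89). So the PD00 library lay below Control for Ccl2, Ccl7 and Ccl12 and above it for Ccl8.

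The receptor Ccr2 was at 31.15, 108.5 and 66.4 CPM, 3.48-fold higher in Model than in Control (3.33 to 3.65) and 1.63-fold lower in PD00 than in Model (1.58 to 1.69). Ccr8 was rare, with 33, 43 and 61 UMIs or 0.427, 0.540 and 0.793 CPM. Its ratio of Model to Control was 1.26 (0.784 to 2.05) and that of PD00 to Model 1.47 (0.979 to 2.225), and both intervals include 1. These ratios were not the same with equal weight per class: Ccl12 was lower in Model than in Control (log2 ratio -1.51 in place of 0.60) and Ccr8 lower in PD00 than in Model (-0.68 in place of 0.56). Under that weighting Model stood at log2 ratios of 4.69 for Ccl8, 0.64 for Ccr2, -2.295 for Ccl2 and -1.61 for Ccl7 against Control, in place of 6.535, 1.80, -1.26 and -0.30. The PD00 to Model log2 ratio of Ccr2, -0.32, was then under 1.5-fold.

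Between Model and Control, 3 of the 6 genes (Ccl8, Ccl12 and Ccr2) were at least 1.5-fold higher, against 12.3% of 15438 measured genes (50 UMIs or more in the 2 sums together), and 1 (Ccl2) was at least 1.5-fold lower, against 18.1%. Between PD00 and Model, 5 (all but Ccr8) were at least 1.5-fold lower, against 7.29% of 15253 genes, and 0 were higher, against 3.50%. Both comparisons use the Model library, and the members were selected on such values, so nothing is read from these counts.

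**Figure D1:**
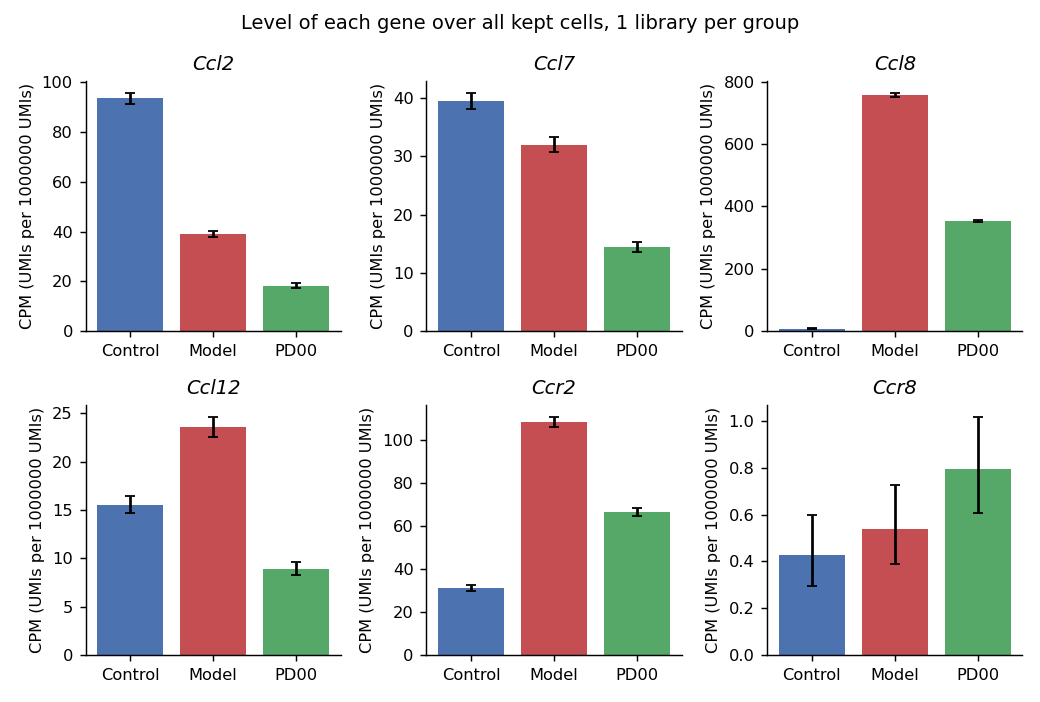
Bars give CPM over all kept cells for each gene (vertical axes, each panel on its own scale from 0) in the 3 libraries, with exact Poisson 95% intervals. Ccl8 and Ccr2 are highest in Model, Ccl2 and Ccl7 in Control, and the Ccr8 intervals of Control and PD00 each overlap that of Model.

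Interstitial macrophages, the C1q-bearing tissue macrophages outside the air spaces, were the leading source of all 4 ligands in Control and Model. In PD00 they still led for Ccl8, Ccl7 and Ccl12, while fibroblasts held slightly more of Ccl2. The class had 194 Control, 604 Model and 439 PD00 cells, or 2.07%, 5.35% and 4.68% of the kept cells. It held 58.5%, 64.2% and 56.3% of the Ccl8 UMIs of Control, Model and PD00. Of the Ccl12 UMIs it held 86.7%, 79.3% and 67.8%, the narrowest source among the ligands. For Ccl7 its share was 56.2%, 46.2% and 35.3%, and for Ccl2 42.5%, 33.5% and 27.7%.

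In interstitial macrophages Ccl8 was at 310.2 CPM in Control, 6585 in Model and 3868 in PD00. The mean per cell was 1.90, 64.2 and 34.8 UMIs. Within this class Model was 21.2-fold above Control (19.2 to 23.6), a smaller ratio than over all cells, and PD00 1.70-fold below Model (1.67 to 1.735). Ccl8 was spread very unevenly: the median cell had 0, 11 and 5 UMIs, the highest 34, 1125 and 1318, and the tenth of cells with most held 69.9%, 57.6% and 61.7% of the UMIs. Over all classes, 26, 95 and 82 cells held 50% of all Ccl8 UMIs. Interstitial macrophages with at least 100 Ccl8 UMIs numbered 0 in Control, 114 in Model and 44 in PD00.

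The other 3 ligands were all lower in Model interstitial macrophages. Ccl2 was at 2583 CPM in Control, 177.0 in Model and 99.1 in PD00, 14.6-fold lower in Model than in Control (13.6 to 15.7) and 1.79-fold lower in PD00 than in Model (1.59 to 2.01). Ccl7 was at 1441, 200.3 and 98.8 CPM, 7.19-fold lower (6.675 to 7.75) and then 2.03-fold lower (1.81 to 2.28). Ccl12 was at 875.2, 253.0 and 117.8 CPM, 3.46-fold lower (3.19 to 3.75) and then 2.15-fold lower (1.93 to 2.39). Ccl12 was thus higher over all Model cells, which held more interstitial macrophages, and lower within them. The share of interstitial macrophages with a Ccl2 UMI was 85.6% in Control, 43.9% in Model and 30.5% in PD00, although the median depth was lowest in Control (5470.5 UMIs against 8813.5 and 7978). Thinned to 500 UMIs per cell the shares were 52.1%, 8.11% and 5.24%.

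Ccr2 in the same cells was at 42.0, 189.6 and 187.0 CPM. It was 4.51-fold higher in Model than in Control (3.40 to 6.115), and 1.01-fold lower in PD00 than in Model with an interval that includes 1 (0.923 to 1.11). Of the 5 members with enough UMIs in this class, 2 (Ccl8 and Ccr2) were at least 1.5-fold higher in Model than in Control, against 18.7% of 8203 genes, and 3 were lower, against 14.9%. Between PD00 and Model the 4 ligands were at least 1.5-fold lower, against 3.37% of 8879 genes, and 0 members were higher, against 2.49%.

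**Figure D2:**
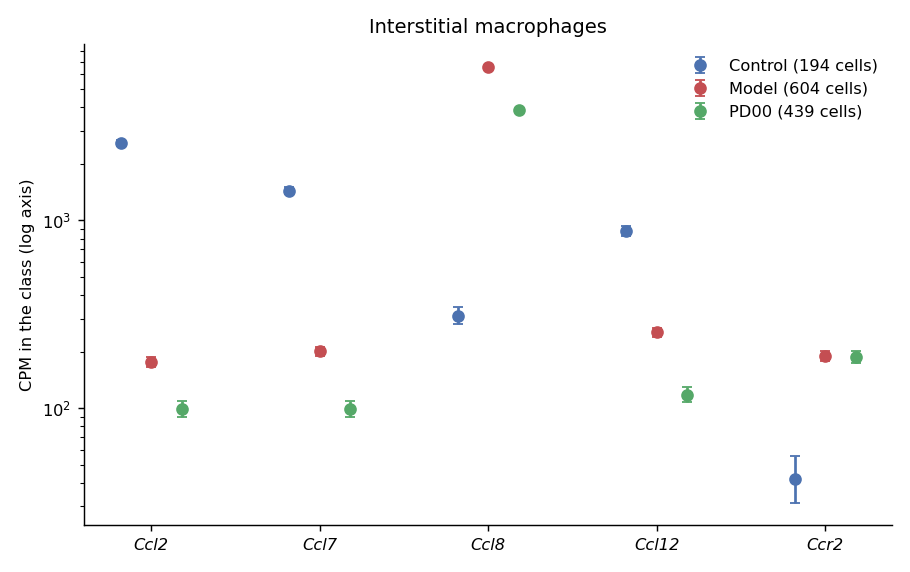
Points give CPM within interstitial macrophages on a log axis for 4 ligands and Ccr2, coloured by library, with exact Poisson 95% intervals. Ccl8 and Ccr2 lie lowest in Control, while Ccl2, Ccl7 and Ccl12 step down from Control to Model to PD00.

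Immediate-early genes and genes of macrophage subtype also differed between Control and Model in these cells, and less between PD00 and Model. Immediate-early genes, which dissociation can induce, summed to 12755 CPM in Control interstitial macrophages, 6918 in Model and 7699 in PD00. Of the 14, 0 were at least 1.5-fold higher in Model, against 18.7% of genes measured in this class, and 11 lower, against 14.9%. Their median log2 ratio was -1.27, against 0.03 over all genes measured. In PD00 against Model 0 passed either way, against 2.49% of genes higher and 3.37% lower. The median of the 14 was then 0.20, against 0.04. The 4 with most UMIs were Junb at 2769 CPM in Control and 2186 in Model, Jund at 1657 and 818.8, Fosb at 786.1 and 824.4, and Klf6 at 1080 and 731.5. Whether they play a part in the drop of Ccl2, Ccl7 and Ccl12 from Control to Model was not tested. In fibroblasts the sum was 27893, 21871 and 22737 CPM, and there Ccl2 was 1.02-fold lower in Model with an interval that includes 1 (0.919 to 1.14).

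Interstitial macrophages resembling the perivascular type, which bears Lyve1 and Cd163 and lines vessels, differed from the rest. A UMI of any gene named next was enough to count a cell here, and free RNA can supply one. Their place in the lung was not measured. Interstitial macrophages with a UMI of Lyve1, Cd163, Timd4, Cd209f or Cbr2 numbered 137 of 194 in Control, 288 of 604 in Model and 195 of 439 in PD00. Those cells had 448.3, 10897 and 7716 CPM of Ccl8, against 23.3, 2517 and 949.7 in the remaining interstitial macrophages, so they stood higher in every library. Ccl2 followed the same order, at 3152, 272.3 and 142.8 CPM against 1401, 87.2 and 65.9. It was lower in Model than in Control in both subsets. Ccr2 was reversed, at 33.6, 126.7 and 84.0 CPM in the perivascular type and 59.5, 249 and 265.1 in the rest. Of 9 measured genes of the fixed perivascular list, 0 were at least 1.5-fold higher and 6 lower in Model interstitial macrophages. Their median log2 ratio was -0.99, against 0.03 over all genes measured there, of which 18.7% were higher and 14.9% lower. In PD00 against Model, where 2.49% of genes were higher and 3.37% lower, 0 of the 9 were higher and 2 lower (median -0.02, against 0.04). Their part in the ligand differences was not tested beyond this split.

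The macrophages that carried the receptor RNA had lower ligand CPM. In Model, the 223 interstitial macrophages with a Ccr2 UMI had 2276 CPM of Ccl8, and the 381 without had 10868. In PD00 the values were 864.8 CPM in 147 cells and 6316 in 292, and in Control 45.1 CPM in 24 cells and 370.9 in 170. Ccl2, Ccl7 and Ccl12 were likewise lower in CPM in the cells with a Ccr2 UMI in all 3 libraries. Per cell, Ccl7 in Control had close means of 8.67 UMIs with a Ccr2 UMI and 8.86 without, medians of 4 and 3, and a Ccl7 UMI in 83.3% and 74.7% of cells. Ccl2 means with and without a Ccr2 UMI were 11.4 and 16.5 in Control, 1.52 and 1.845 in Model and 0.81 and 0.93 in PD00. A Ccl2 UMI was found in 83.3% and 85.9% of these cells in Control, 41.3% and 45.4% in Model and 26.5% and 32.5% in PD00. For Ccl8 the Model means were further apart, at 29.9 and 84.2 UMIs. The cells with a Ccr2 UMI were the deeper ones, with medians of 8644, 12082 and 11560 UMIs against 5214, 6472 and 6202. They were also richer in the class II genes H2-Ab1, H2-Eb1 and Cd74, which present antigen (18903, 25763 and 26259 CPM summed, against 12955, 19711 and 20912), and poorer in the 5 perivascular genes (117.4, 71.9 and 48.5 CPM, against 880.3, 578.9 and 508.7). Across single interstitial macrophages the Spearman rho between the shares of Ccl8 and Ccr2 was -0.18 in 194 Control, -0.51 in 604 Model and -0.45 in 439 PD00 cells, given as a description since cells share a library.

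**Figure D3:**
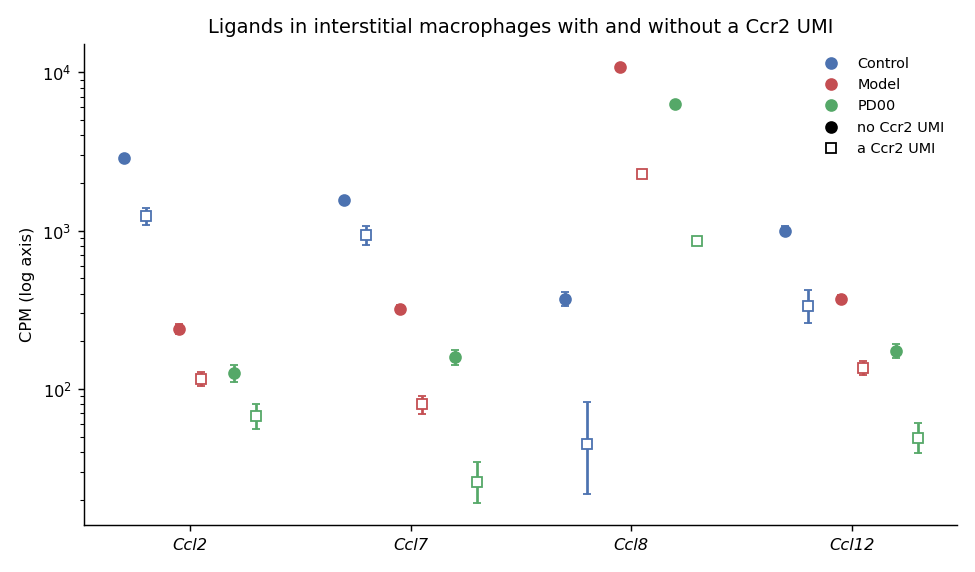
Points give CPM of each ligand on a log axis in interstitial macrophages without (filled circles) and with (open squares) a Ccr2 UMI, coloured by library, with exact Poisson 95% intervals. In each library and for each ligand the open square lies below the filled circle, with the widest gap for Ccl8.

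Ligands were also paired with each other in single interstitial macrophages. Of Control cells with a Ccl7 UMI 95.9% also had a Ccl2 UMI, against 53.2% of those without. In Model these shares were 71.5% and 29.5%, and in PD00 57.0% and 20.4%. The rho between the shares of Ccl2 and Ccl7 was 0.68, 0.52 and 0.43, and between Ccl2 and Ccl8 0.31, 0.22 and 0.20, again as a description. Ccl2 thus ran more with Ccl7 than with Ccl8 in every library. Ccl7 itself had a rho with Ccl8 of 0.13, 0.43 and 0.44, in PD00 slightly above that of Ccl2 with Ccl7. The rho of Ccl8 with Ccl12 was 0.25, 0.46 and 0.43. Across 57 sums of a class in a library, which share libraries and depth, Pearson r of log2(CPM + 1) was 0.86 for Ccl2 with Ccl7 and 0.02 for Ccl2 with Ccl8.

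After interstitial macrophages, the class with most Ccl8 UMIs in Model and PD00 was the macrophage class marked by Gpnmb, Trem2, Mmp12 and Spp1. It had 169, 1361 and 1142 cells. It held 15.9% of the Ccl8 UMIs in Model and 19.8% in PD00. Its mean was 0.0237, 7.06 and 4.70 Ccl8 UMIs per cell, or 1.58, 465.6 and 272.0 CPM. The Control value rests on 4 UMIs, which makes the Model ratio of 294.2 very loose (114.9 to 1080). Only 53.4% of these cells fell in a cluster of the same name, so its edge against the other macrophages is soft. The median cell of the class had 2 Ccl8 UMIs in Model and 1 in PD00. A single cell held 707 of its 9612 Ccl8 UMIs in Model and 641 of 5370 in PD00. Ccl2 in this class was at 34.0, 43.9 and 8.36 CPM, 5.25-fold lower in PD00 than in Model (4.44 to 6.24), and it supplied 29.1% of the Model Ccl2 UMIs against 11.7% in PD00.

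Alveolar macrophages, the resident phagocytes of the air spaces, were a large Ccl2 source in Control alone, with 30.7% of its Ccl2 UMIs in 2770 cells. Their Ccl2 was at 54.8 CPM in Control, 6.73 in Model and 5.09 in PD00, 8.15-fold lower in Model than in Control (5.81 to 11.8). Their number was 279 in Model and 828 in PD00. The libraries filled different clusters of this class: the cluster with most cells of this kind in Control, cluster 5, had 3007 Control, 0 Model and 7 PD00 cells, and the one in Model and PD00, cluster 29, had 3, 751 and 1282. Immediate-early genes summed to 5940, 6102 and 5395 CPM in this class. Those sums span the different clusters just given, and any part in the Ccl2 difference was not tested.

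In gated fibroblasts Ccl2 was at similar levels in Control and Model. The class was at 253.0, 247.8 and 213.2 CPM of Ccl2 in Control, Model and PD00, with 429, 217 and 186 cells, and its share of the Ccl2 UMIs went from 13.6% to 17.7% and 29.3%. In the adventitial type, marked by Pi16 and Dpt, Ccl2 was at 322.0, 285.9 and 277.4 CPM and Ccl7 at 195.9, 305.5 and 220.6 CPM. The PD00 value leans on 1 cell with 113 of its 413 Ccl2 UMIs, which lies in a cluster of mural cells. Without it the class would hold less Ccl2 than the interstitial macrophages, which held 391 UMIs. With clusters in place of gates, fibroblast Ccl2 had a log2 ratio of -0.91 in PD00 against Model, in place of -0.22. Ccl7 in all fibroblasts was 1.72-fold higher in Model than in Control (1.53 to 1.93), opposite to the interstitial macrophages, and 1.49-fold lower in PD00 than in Model (1.295 to 1.71). In Control, fibroblasts also held 20.8% of the few Ccl8 UMIs. Ccl12 was all but missing from them, with 5, 11 and 7 UMIs.

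Ccl8 UMIs appeared in every class of the Model and PD00 libraries. The share of cells with at least 1 Ccl8 UMI was 2.38% in Control, 64.0% in Model and 52.8% in PD00. In B cells, which are not a source of this chemokine, it was found in 56.1% of Model cells and 46.2% of PD00 cells, against 0.825% in Control. The mean per cell was nearly the same in lymphocytes and granulocytes of very different depth. Across B, T and NK cells, ILC2 (group 2 innate lymphoid cells), neutrophils and eosinophils it ran from 0.745 to 0.958 UMIs in Model and from 0.510 to 0.663 in PD00, while their median depths ran from 917.5 to 4353 and from 877 to 4965 UMIs. The ratio of Ccl8 to Ccl2 UMIs in Model was 37.2 in interstitial macrophages, 31.6 in B cells, 36.8 in T cells and 34.25 in neutrophils. The ratio of Ccl8 to Ccl12 was less alike, at 26.0 in interstitial macrophages, 53.25 in B cells, 48.3 in T cells and 39.1 in neutrophils, where Ccl12 had 16, 51 and 21 UMIs in the last 3. Free RNA, which enters every droplet, gives unlike cells a like number of UMIs, and the shares of cells with a Ccl8 UMI in these classes are read as background.

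Set against the median of those 6 classes, interstitial macrophages stood 70.1-fold higher in Model and 54.8-fold higher in PD00. The Gpnmb Trem2 class stood 7.72-fold and 7.41-fold above it, fibroblasts 3.585-fold and 3.18-fold, alveolar macrophages 2.27-fold and 2.03-fold. These compare means, and the median Gpnmb Trem2 cell had 2 and 1 Ccl8 UMIs, against background values of 0.915 and 0.635 per cell. In type 2 conventional dendritic cells 1 cell held 349 of the 683 Ccl8 UMIs in Model and 1 held 72 of 116 in PD00, and the median cell had 1 and 0 UMIs, so their level rests on those cells. Classical monocytes were at 1.24 and 1.195 times the background, and endothelium at 1.49 and 1.41 times. In fibroblasts the ratio of Ccl8 to Ccl2 was 1.295 in Model and 0.908 in PD00, against 37.2 and 39.0 in interstitial macrophages. The 6 background classes together held 8.21% of all Ccl8 UMIs in Model and 10.2% in PD00. For Ccl2 their median was 0.0495, 0.0263 and 0.0164 UMIs per cell, over 5 classes in Control, where only 24 eosinophils were found and a class needed 50 cells, so the fibroblast level of 2.29, 2.535 and 2.22 UMIs per cell was far above it.

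**Figure D4:**
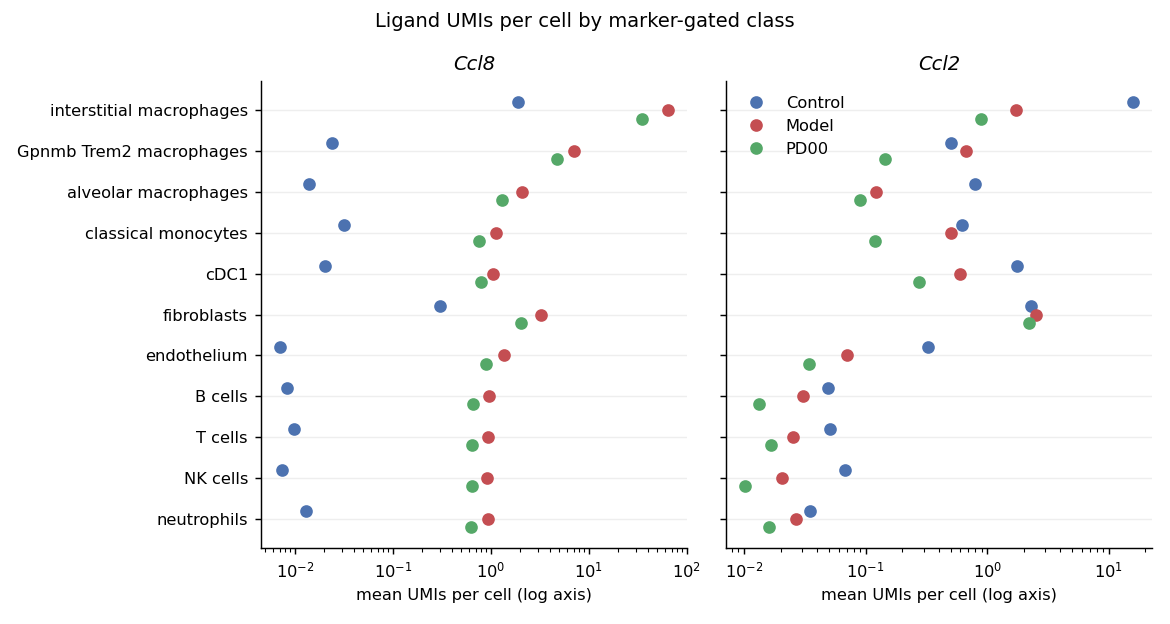
Points give mean UMIs per cell (log axes) of Ccl8 and Ccl2 for 11 classes in each library. Ccl8 is nearly level across B, T and NK cells and neutrophils within a library and rises to 64.2 per cell in Model interstitial macrophages, whereas fibroblast Ccl2 lies at 2.22 to 2.535 per cell in all 3 libraries.

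Ccr2, the receptor for CCL2, CCL7 and CCL12, had its largest share of UMIs in T cells and its highest levels in classical monocytes, gamma-delta T cells and ILC2. Classical monocytes were at 527.2 CPM in Control, 661.7 in Model and 511.2 in PD00, with a Ccr2 UMI in 86.6%, 80.3% and 74.1% of 127, 173 and 58 cells. They held 19.5%, 9.12% and 4.05% of the Ccr2 UMIs. Model exceeded Control by 1.255-fold (1.12 to 1.41), and PD00 was 1.29-fold below Model (1.11 to 1.52), both short of 1.5-fold. T cells as a whole held 33.6%, 40.0% and 40.6% of the UMIs, at 106.1, 265.4 and 200.4 CPM, 2.50-fold higher in Model (2.32 to 2.70) and 1.32-fold lower in PD00 than in Model (1.25 to 1.40).

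Among T cells the levels differed by subset. Gamma-delta T cells, which carry the alternative antigen receptor, were at 385.2, 650.0 and 525.3 CPM, the highest subset in Model and PD00. The Th2-like cells, set by a UMI of Il1rl1, Il13, Il5 or Il4, were at 382.1, 240.8 and 244.6 CPM, and their number went from 70 to 766 and 880. Regulatory T cells were at 201.6, 380.1 and 265.2 CPM. CD8 T cells were low in Control at 14.5 CPM and reached 174.8 in Model and 82.9 in PD00, with a Ccr2 UMI in 4.32%, 34.4% and 16.7% of cells. ILC2 were at 399.2, 488.6 and 395.3 CPM, 1.22-fold higher in Model than in Control (1.01 to 1.48) and 1.24-fold lower in PD00 than in Model (1.005 to 1.52), both short of 1.5-fold. B cells were at 1.99, 4.97 and 3.78 CPM and neutrophils at 4.79, 11.9 and 3.22, the low end for this receptor. Per cell, B cells had 0.0071, 0.0270 and 0.0222 UMIs and neutrophils 0.0098, 0.0293 and 0.0074. Control alveolar macrophages, which are deeper, had 0.0292 per cell, so a CPM background does not carry over to them. Eosinophils were at 68.5 CPM in Model, where 1 cell held 16 of their 46 UMIs.

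Macrophage classes were higher in Ccr2 in Model than in Control. Interstitial macrophages held 2.08% of the Ccr2 UMIs in Control, 12.9% in Model and 14.4% in PD00. The Gpnmb Trem2 class went from 2.37 CPM (6 UMIs) to 48.7 and 30.7 CPM, and alveolar macrophages from 1.999 to 26.9 and 11.7 CPM. These rises go with the change of clusters given above for alveolar macrophages, and the Gpnmb Trem2 cluster of greatest depth, cluster 26, had 0 Control, 517 Model and 552 PD00 cells. The 1 interstitial macrophage cluster held cells of each library, with 207, 636 and 487 cells. In order of level in Model, classical monocytes and gamma-delta T cells came first with overlapping intervals. ILC2 and regulatory T cells followed, again overlapping, and then NK cells at 288.0 CPM.

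**Figure D5:**
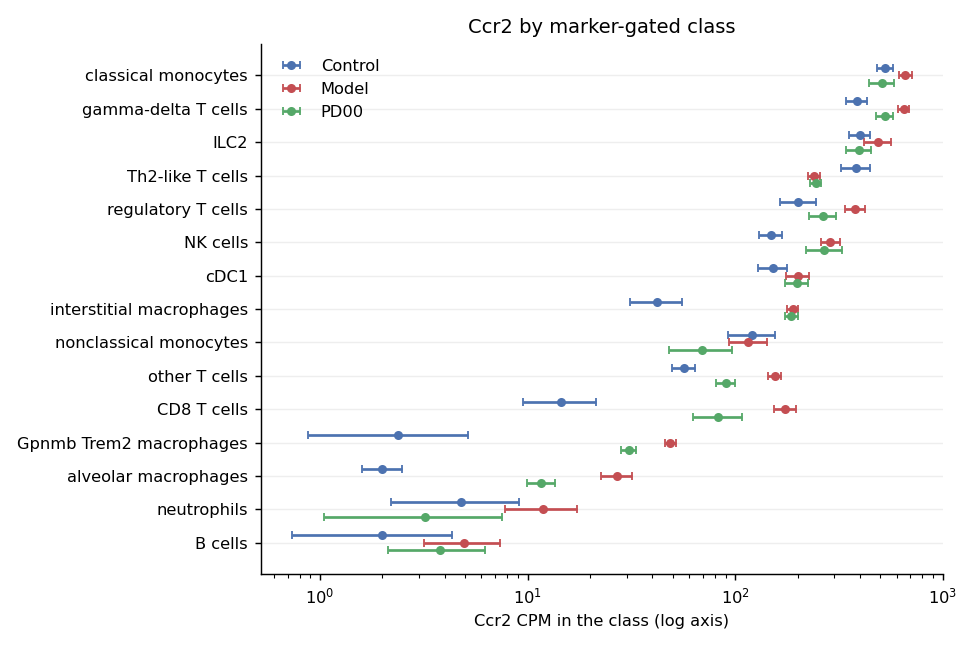
Points give Ccr2 CPM on a log axis for 15 classes and T cell subsets in each library, with exact Poisson 95% intervals. In Model and PD00 classical monocytes and gamma-delta T cells lie highest and B cells and neutrophils lowest. In Control ILC2 lie just above gamma-delta T cells, and alveolar macrophages, though deeper, lie at the CPM of B cells. The macrophage and CD8 T cell points shift right from Control to Model.

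Ccr8, the receptor tied to mouse CCL8, was found almost only in ILC2 and T cells. ILC2 held 16, 8 and 6 of the 33, 43 and 61 UMIs and T cells 13, 28 and 46. Its level in ILC2 was 23.1, 21.7 and 11.7 CPM. Any UMI of Cd3e, Cd3d, Cd3g or Trac moved a cell from the ILC2 gate to the T cells. A T cell with none captured could be gated as ILC2. Cluster 18, named ILC2 by its mean marker score, had 10 Control, 792 Model and 954 PD00 cells, while the ILC2 gate held 155, 90 and 153. Comparisons between libraries in ILC2 and Th2-like cells, for Ccr2 and Ccl1 too, carry this limit. In T cells it was 1.70, 2.15 and 4.44 CPM, and PD00 stood 2.07-fold above Model (1.27 to 3.44). Within T cells the Th2-like cells held 7, 17 and 27 UMIs, regulatory T cells 2, 6 and 4. In Th2-like cells the level was 18.1 CPM in Control (7.27 to 37.2), 4.26 in Model (2.48 to 6.81) and 6.21 in PD00 (4.09 to 9.03). The Control value rests on 7 UMIs in 70 cells, and its interval overlaps that of PD00. More cells were gated as Th2-like in Model and PD00. Given the gate limit above, whether Ccr8 differed within one kind of cell was not tested. B cells held 0, 1 and 1 UMIs, and interstitial macrophages 0, 1 and 0.

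RNAs of type 2 lymphocytes were counted in the T cells and ILC2 with a Ccr8 UMI, 28, 33 and 49 cells, and they did not all run the same way. Gata3, the master regulator of type 2 lymphocytes, was found in 89.3%, 87.9% and 81.6% of them, against 20.3%, 48.8% and 60.7% of the T cells and ILC2 without one. Il1rl1, the IL-33 receptor, was found in 21, 23 and 30 of the cells with a Ccr8 UMI, against 10.3%, 29.6% and 41.0% of those without. Of the type 2 cytokine RNAs, Il5 was found in 5, 5 and 8 of them (17.9%, 15.2% and 16.3%), against 1.36%, 5.51% and 5.94% of those without. Il13 was found in 0, 10 and 12 (0%, 30.3% and 24.5%), against 0.284%, 8.085% and 8.07%. Il4 was found in 0, 7 and 0, against 0.227%, 5.18% and 6.54% of the cells without a Ccr8 UMI. Foxp3, which marks regulatory T cells, was found in 2, 6 and 4 cells (7.14%, 18.2% and 8.16%), against 3.86%, 5.18% and 4.74% of those without. Cd8a was found in 0 of the 110, against 6.73% of all those without. Ccl1, the other known mouse CCR8 ligand, was found in 11, 4 and 6 of the cells with a Ccr8 UMI (39.3%, 12.1% and 12.2%). Among those without, it was found in 5.22%, 3.80% and 5.30%. Median depths were 5256, 6418 and 4605 UMIs with a Ccr8 UMI and 4269, 4325 and 4075 without, and deeper cells show more genes. Gata3 and Il1rl1 are also markers of the ILC2 gate, so their shares are partly set by the gating. The mix of classes differed too, since ILC2 were 15, 6 and 4 of the cells with a Ccr8 UMI.

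Other genes of the pathway were taken from fixed lists. Over all cells, 12.3% of all measured genes were at least 1.5-fold higher and 18.1% lower in Model than in Control. In PD00 against Model these shares were 3.50% and 7.29%. Of 10 other CC ligands measured over all cells, 5 were at least 1.5-fold higher and 3 lower in Model than in Control (median log2 ratio 0.76, against -0.13 over all genes), and 0 were higher and 4 lower in PD00 than in Model (median -0.40, against 0.00). The 4 with most UMIs were Ccl6 at 2518 CPM in Control and 2864 in Model, Ccl9 at 186.6 and 833.1, Ccl5 at 554.9 and 375.6, and Ccl3 at 391.8 and 71.7. Within interstitial macrophages, Ccl3 and Ccl4, whose proteins draw inflammatory cells, were lower in Model, as Ccl2 was. Ccl4 was at 3978 CPM in Control and 154.5 in Model, 25.8-fold lower, while PD00 was at 220.2. Ccl3, named after its values were seen, was at 1629 and 57.1 CPM, 28.5-fold lower. Ccl24, an eosinophil attractant that acts on CCR3, was at 201.8, 367.5 and 307.8 CPM in these cells, and Ccl9 at 251.4, 919.4 and 961.7.

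Ccl1 came from other cells than Ccl8 did. ILC2 held 671 of 999 Ccl1 UMIs in Control (966.9 CPM), 37 of 331 in Model (100.4 CPM) and 115 of 469 in PD00 (225.1 CPM). T cells held 274, 246 and 325. The limit of the ILC2 and T cell gates given above holds for these shares as well. Over all cells Ccl1 was 3.11-fold lower in Model than in Control and at a ratio of 1.47 in PD00 against Model, so Ccl1 and Ccl8 differed in opposite directions in each comparison.

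Of 13 other CC receptors and decoys, 7 were at least 1.5-fold higher in Model than in Control, against 12.3% of all genes, and 2 lower, against 18.1%. In PD00 against Model 0 were higher, against 3.50%, and 4 lower, against 7.29%. Their median log2 ratios were 1.20 and -0.35, against -0.13 and 0.004 over all genes. Ccr1, a receptor of CCL3 and CCL5, was at 149.0 CPM in Control and 145.4 in Model, Ccr7 at 78.9 and 71.5, and the non-signalling Ccrl2 at 295.3 and 141.5. Of 11 receptor signalling genes 1 was higher and 2 lower in Model (median -0.17), beside the same shares of all genes. In PD00 against Model 0 of the 11 passed either way (median 0.04). Of 10 regulators of Ccl2 RNA, 3 (Zfp36, Zfp36l1 and Nfkbia) were at least 1.5-fold lower in Model than in Control within interstitial macrophages, against 14.9% of all genes measured there, and 1 was higher, against 18.7%. The median log2 ratio of the 10 was -0.0052, against 0.03 over all genes. Zfp36, whose protein destabilises inflammatory RNAs, was at 851.7 CPM in Control and 311.8 in Model, and the NF-kB inhibitor gene Nfkbia at 1761 and 841.2.

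Genes with the most similar pattern were sought over the 57 sums among 13538 genes by Pearson r of log2(CPM + 1). For Ccl8 they were Rnase2a (0.88), Retnla (0.85) and Mmp12 (0.84, a marker of the Gpnmb Trem2 gate). For Ccl2 they were Pid1 (0.74), Abca9 (0.72) and Ifi207 (0.72), and for Ccl7 Olfml3 (0.70), Prg4 (0.69) and Rnf150 (0.69). For Ccl12 they were the interstitial macrophage markers Folr2 (0.79), Cd209f (0.77) and C1qb (0.76). For Ccr2 they were Runx3 (0.77), Arl4c (0.77) and Lpar6 (0.76), and for Ccr8 Ccl1 (0.88), Il5 (0.88) and Tcrg-C4 (0.88). The sums share libraries and depth, and for Ccl8 also the free RNA of a library, so the values are a description.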

How the data were processed

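Each of the 3 libraries came from a 10x Chromium 3' kit of version 3 chemistry, per the labels' protocols. The deposited matrices hold UMI counts per gene and barcode, not normalised by the authors, with reads processed by Cell Ranger 3.1.0 and STAR on mm10 per the submitters' processing notes and written by cellranger 5.0.0 per the file headers. Kept cells had at least 500 UMIs and 200 genes and a mitochondrial share of 20% or less, and Scrublet scores above 0.2, a limit chosen after the data were seen, were removed (421, 252 and 274 cells). Empty droplets were not used here, and free RNA was not corrected for.

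Classes were gated with scanpy 1.11.5 on the mean standardised log level of fixed markers, leaving out the 6 genes. A score of at least 0.5 and 0.2 above the next class family was needed. UMIs were summed per library and class and scaled to CPM, with exact Poisson intervals for levels, exact Clopper-Pearson for shares of cells and exact conditional-binomial for ratios, all at 95%. A difference was called at 1.5-fold among genes with 50 UMIs or more in the 2 sums together. The ratio calculation was checked on simulated Poisson counts, which cannot show how the uneven spread over cells affects the intervals. The members, gene lists, rules and alternatives were chosen with earlier results of these data known. Named genes were the 6 members, the 3 most similar to each, and up to 4 members of each list with most UMIs, while the genes shown for cells split by a Ccr2 or Ccr8 UMI, the classes holding Ccl1, the list genes named beside counts of 5 or fewer and Ccl3 within macrophages were named after their values were seen. Values of 2 genes of these lists are not reported here. Labels do not say that libraries came from more than 1 animal.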

Additional observations from a re-analysis of the deposited data

How the results depend on the processing

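The 6 ratios of each comparison over all kept cells were recomputed under 8 alternatives. Of the 96 values, 75 lay within the counting interval of the reported value, 20 lay outside it and 1 called ratio changed direction. Giving every class the same weight moved them most. Ccl12 in Model against Control then turned from a log2 ratio of 0.60 to -1.51; the cause was not tested. Under that weighting the Model to Control log2 ratios were -2.295 for Ccl2, -1.61 for Ccl7, 4.69 for Ccl8 and 0.64 for Ccr2. Those of PD00 to Model were -0.62, -0.75, -0.74, -1.11, -0.32 and -0.68 for Ccl2, Ccl7, Ccl8, Ccl12, Ccr2 and Ccr8, and Ccr8 (0.56 as reported) so changed its sign. Median-of-ratios scaling added 0.12 to every Model to Control log2 ratio, giving -1.145 for Ccl2, -0.18 for Ccl7, 6.65 for Ccl8, 0.72 for Ccl12 and 1.92 for Ccr2. With a mitochondrial limit of 10%, Ccl2 was -1.20 and Ccl12 0.71 in Model against Control, and Ccl8 -1.16 and Ccl12 -1.53 in PD00 against Model. Without the 1 cell of each library with most UMIs, Ccl8 was -1.15 in PD00 against Model.

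Within classes, 0 of the alternatives turned a called ratio, but 8 of 124 class log2 ratios moved by more than 0.58. Of alternatives for class ratios, shares of cells and gene counts, 102 stayed and 42 moved outside the counting interval or, for gene counts, past 1.5-fold. With clusters in place of gates, interstitial macrophages gave log2 ratios in Model against Control of -4.02 for Ccl2 and 4.18 for Ccl8. Leaving out the 3 clusters with at least 30% ungated cells was added after seeing the data. At a minimum of 1 UMI in place of 50, 4260 genes in place of 1901 were at least 1.5-fold higher and 5753 in place of 2798 lower in Model, and 2980 in place of 534 higher and 3618 in place of 1112 lower in PD00 against Model; at 200 UMIs these last were 287 and 567. No paired analysis was possible because each group has 1 library. Ccr8, with 137 UMIs in all, is limited by depth.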
